A study of Mus musculus with 20 samples.

Results

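The 8 genes described here belong to the classical complement pathway and were followed in mouse lung after a dietary change and a dust exposure. They were picked by name from the 547 endogenous genes of the NanoString mouse Immunology panel, and all 8 were on it. C1qa and C1qb encode chains of C1q, C1ra and C1s the proteases C1r and C1s, C4a and C2 carry the names of the next 2 components, Serping1 encodes the C1 inhibitor, and C1qbp encodes a C1q-binding protein.

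The classical pathway begins when C1q, the recognition part of the C1 complex, binds antibody on a surface or certain microbial and dead-cell surfaces directly. C1r and then C1s are activated, C1s cleaves C4 and C2, and their fragments form the convertase that cleaves C3. C1 inhibitor blocks C1r and C1s. In tissues C1q is made mainly by macrophages and dendritic cells, whereas C1r, C1s and C1 inhibitor are also made by fibroblasts and other stromal cells, and the liver supplies much of the circulating C4 and C2.

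Male C57BL/6J mice, 5 to 8 weeks old when obtained, were fed for 4 weeks a DHA diet, rich in the omega-3 fatty acid docosahexaenoic acid, or a control diet. They then received 50 µL of 12.5% HDE, an aqueous extract of dust from swine confinement barns, or of saline through the nose once, and lungs were collected 5 h later. The panel was read in the left lung of 20 mice, namely 7 DHA-fed and 6 control-fed mice given HDE, and 3 DHA-fed and 4 control-fed mice given saline. The lanes fell into 2 runs of 10 mice by their titles, with 3, 4, 1 and 2 mice of these groups in run 2 and 4, 2, 2 and 2 in run 1. The labels also mention 3 experimental sets, and the set of each mouse was not given in the sources used here.

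Raw counts over the endogenous genes ranged from 123536 to 684074 per mouse. Values below are scaled counts, meaning the raw count divided by a factor for the lane from 4 housekeeping genes. The scaled count of a probe was compared between mice and not with that of another probe, since probes differ in efficiency. All 160 counts of the 8 genes lay above the background of their lane (the mean plus 2 SD of its negative control probes). A gene was called higher or lower at an adjusted p under 0.05 in edgeR, with adjustment over all genes tested. Sftpc and Scgb1a1, the surfactant and club cell genes that mark lung epithelium, were not on the panel, and 3 of the 7 listed epithelial markers (Pigr, Muc1 and Itga6) could be read. The tissue was not sorted, so fewer cells of a type and less RNA per cell cannot be told apart in any value below.

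C1qbp was higher in HDE-exposed lungs than in saline lungs, and none of the other 7 passed the test in either direction over the 20 mice. Of the 358 genes tested 152 were called higher, which is 42.5%, and 18 were called lower, which is 5.03%. That split depended on the scaling, with 29.6% higher and 26.3% lower under TMM (the trimmed mean of M-values), which sets the bulk of the genes tested to no change, and 31.3% and 26.3% under the size factors of DESeq2. The median log2 fold change over the 8 genes was 0.13, against 0.47 over all genes tested, and 7 of the 8 lay below that overall median. Thus 1 call among 8 stood in a panel in which 42.5% of genes were called in the same direction.

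**Figure D1:**
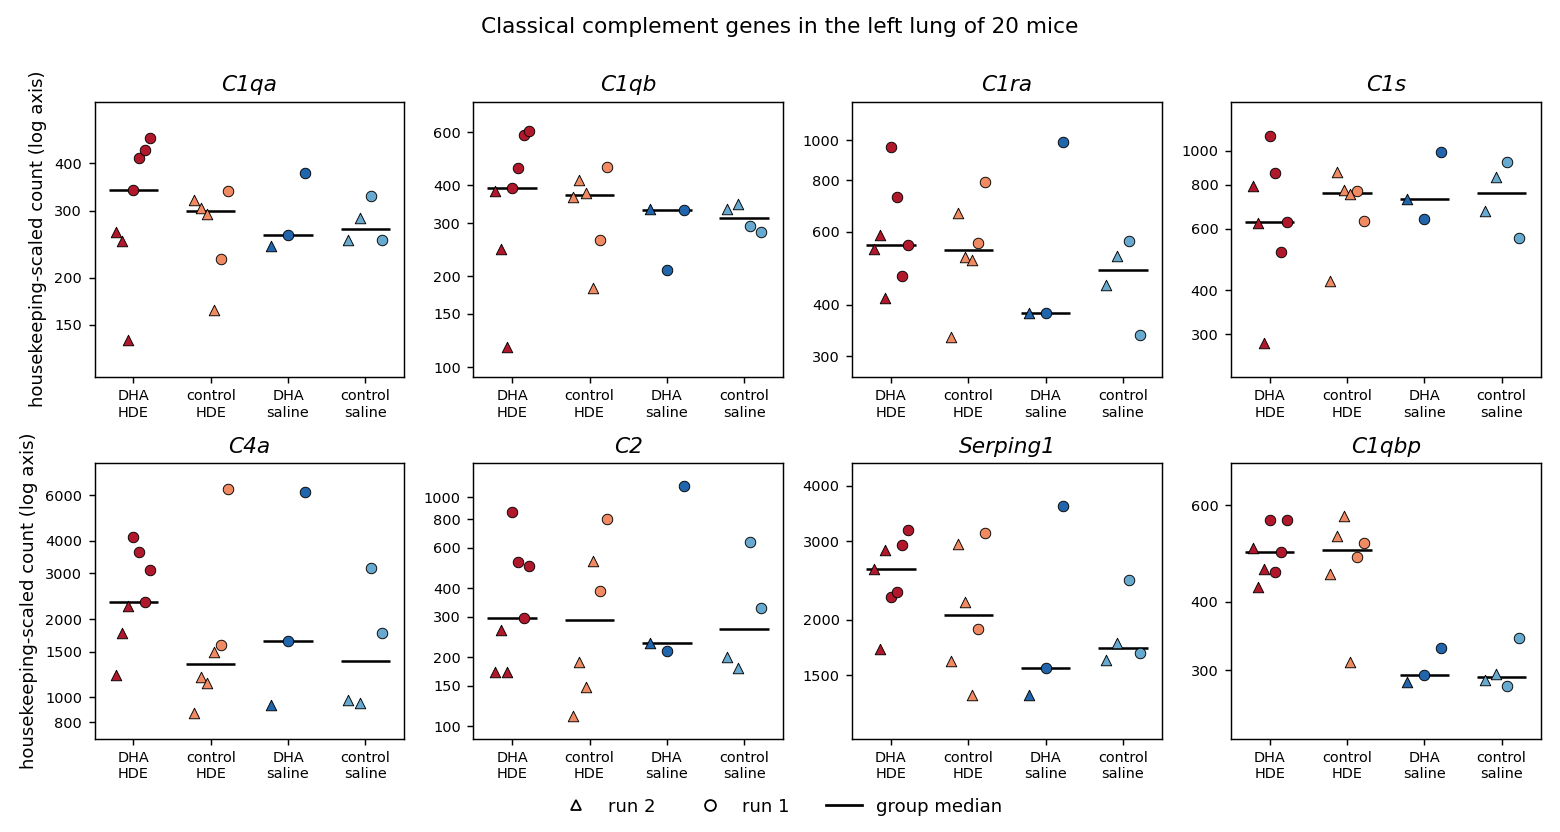
Housekeeping-scaled counts (log axis) of the 8 genes in each of the 20 mice, with 1 symbol per mouse, the group on the horizontal axis, triangles for run 2, circles for run 1 and a bar at the group median. C1qbp is the gene whose HDE-exposed mice stand above the saline mice, with 12 of 13 over the highest saline value, and in C4a every run 1 mouse stands above every run 2 mouse of its group.

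C1qbp encodes a mainly mitochondrial protein that was first isolated through its binding to the globular heads of C1q. On the DHA diet with HDE its lowest, median and highest scaled counts were 426, 493 and 564. On the control diet with HDE they were 310, 498 and 573. The 3 mice on the DHA diet with saline had 294, 329 and 285, and the 4 on the control diet with saline had 281, 343, 288 and 295. The HDE and saline mice overlapped in a single animal: 12 of the 13 HDE-exposed mice lay above the highest saline mouse, and the exception was control diet + HDE replicate 6, with 310.

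C1qbp averaged 486 ± 70.9 after HDE and 302 ± 24.0 after saline (SD, n = 13 and 7). The fold change was 1.60 (log2 0.68, SE 0.14, 95% interval 0.38 to 0.98, adjusted p = 7.04e-04 in edgeR), which placed it 55th by p among the 358 genes. By diet the log2 fold change was 0.71 on the DHA diet (SE 0.22, adjusted p = 0.0217) and 0.66 on the control diet (SE 0.21, adjusted p = 0.0271), where 30.4% and 25.1% of all genes were called higher and 1.68% and 0.838% lower. The difference between these responses was 0.05 (SE 0.30, 95% interval -0.56 to 0.67, adjusted p = 0.997 in edgeR). Within-diet calls rested on few saline mice. On the DHA diet the call was lost without DHA diet + saline replicate 1 or replicate 3 (adjusted p = 0.0750 and 0.106), and on the control diet without control diet + saline replicate 1, 3 or 4 or control diet + HDE replicate 5 (adjusted p = 0.0703, 0.0821, 0.0774 and 0.0532).

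Control diet + HDE replicate 6, the exception in C1qbp, also had the lowest summed scaled count of the 10 macrophage markers on the panel (1246) and of the 9 neutrophil markers (1056) of all 20 mice. The macrophage sum ranged from 1246 to 13452 after HDE and from 1448 to 2320 after saline, and the neutrophil sum from 1056 to 64301 after HDE and from 1758 to 5278 after saline. Of the markers tested, 3 of 8 macrophage genes and 8 of 8 neutrophil genes were called higher after HDE, and none of either list lower. Over the panel 42.5% of genes were called higher and 5.03% lower. Under TMM 3 macrophage genes were called higher and 3 lower, and 8 neutrophil genes higher and 0 lower, against 29.6% and 26.3% of the panel. The lane of control diet + HDE replicate 6 also had the highest geometric mean of the 4 housekeeping genes, 6827, against 743 in the lowest lane. Its counts, those in the marker sums included, were thus divided by the largest factor. Its raw C1qbp count was 788. The part of macrophages, of neutrophils and of this factor in the C1qbp difference was not tested. Without this mouse the log2 fold change of C1qbp was 0.73.

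The size of this difference depended on the scaling, as the plot of the 8 genes under 3 scalings shows. With TMM the median log2 fold change over all genes moved by -0.50. C1qbp then stood at 0.18 (adjusted p = 0.268 in edgeR), still above that median of -0.03, and was no longer called. Across all alternatives its adjusted p ranged from 1.32e-06 to 0.268. Within run 2 alone C1qbp differed by 0.68 (SE 0.28, adjusted p = 0.112) and within run 1 alone by 0.71 (SE 0.19, adjusted p = 0.00682). Of all genes tested 6.77% were called higher and 0% lower in run 2 alone, and 42.8% and 2.96% in run 1 alone.

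**Figure D2:**
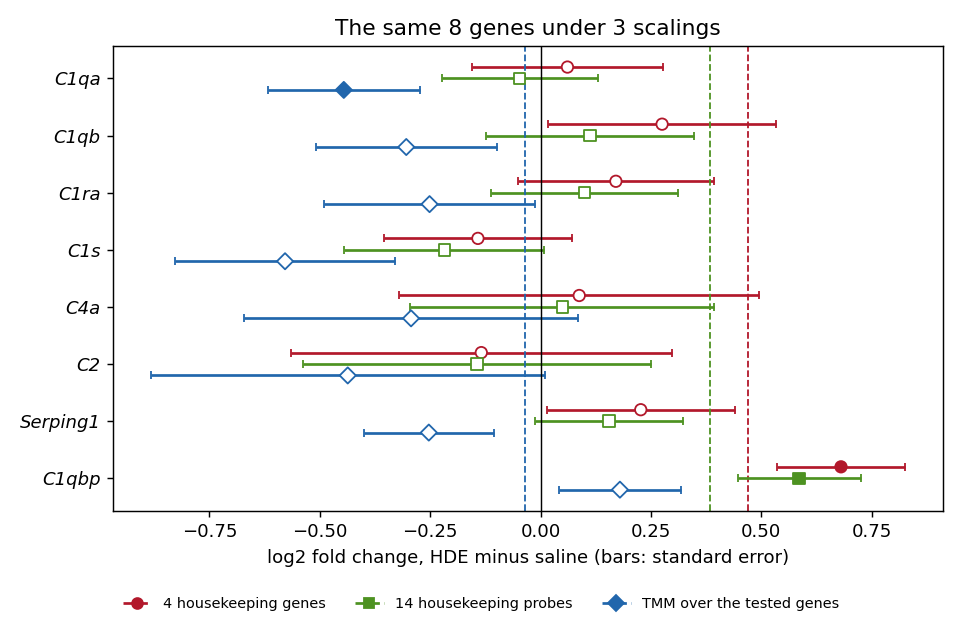
Log2 fold change of each gene, HDE minus saline over 20 mice, under scaling by 4 housekeeping genes, by 14 housekeeping probes and by TMM, with standard errors as bars, filled symbols for an adjusted p under 0.05 and a dashed line at the median over all genes tested under each scaling. C1qbp lies to the right of the dashed line of its own scaling in all 3 cases, at 0.68, 0.59 and 0.18, while the other 7 genes lie to the left of theirs.

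C1q is built from 3 kinds of chain, and the panel reads those of C1qa and C1qb. On the DHA diet with HDE the lowest, median and highest scaled counts of C1qa were 137, 341 and 466. On the control diet with HDE they were 164, 299 and 338. C1qa had 259, 378 and 243 on the DHA diet with saline and 328, 251, 252 and 286 on the control diet with saline. The HDE-exposed mice covered the whole saline range, with 3 mice above it and 3 below it.

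For C1qb the spread was again widest after HDE. Its lowest, median and highest scaled counts were 116, 393 and 607 on the DHA diet with HDE and 182, 371 and 460 on the control diet with HDE. The saline mice had 210, 333 and 334 on the DHA diet and 293, 279, 333 and 348 on the control diet. After HDE 9 of 13 mice were above the highest saline mouse and 2 were below the lowest, so both ends of the range belonged to HDE-exposed mice. Those 2, DHA diet + HDE replicate 7 (116) and control diet + HDE replicate 6 (182), were also the lowest pair in C1qa.

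Neither C1q gene passed the test for HDE over the 20 mice. The log2 fold change was 0.06 for C1qa (95% interval -0.39 to 0.51, adjusted p = 0.832 in edgeR) and 0.28 for C1qb (-0.26 to 0.81, adjusted p = 0.417). In run 2 alone C1qb differed by -0.17 (adjusted p = 0.783) and in run 1 alone by 0.66 (adjusted p = 0.0498), and whether the runs differed in this was not tested. C1qa was called lower under TMM scaling (-0.45, adjusted p = 0.0329) and under the size factors of DESeq2 (-0.44, adjusted p = 0.0268), in which the median of all genes was moved by about as much, and over all alternatives its adjusted p ran from 0.0268 to 1.00.

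C1r and C1s are the paired serine proteases that C1q holds in the C1 complex. C1ra had a lowest, median and highest scaled count of 415, 556 and 965 on the DHA diet with HDE and of 335, 543 and 790 on the control diet with HDE. With saline it had 381, 992 and 383 on the DHA diet and 571, 337, 447 and 523 on the control diet. The single value of 992, from DHA diet + saline replicate 2, was the highest of all 20 mice, and the log2 fold change for HDE was 0.17 (95% interval -0.29 to 0.63, adjusted p = 0.555 in edgeR).

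C1s spanned 284, 625 and 1105 (lowest, median and highest) on the DHA diet with HDE and 426, 760 and 867 on the control diet with HDE. The saline mice had 638, 990 and 726 on the DHA diet and 932, 565, 674 and 843 on the control diet. Here too the groups overlapped: 1 HDE-exposed mouse was above all saline mice and 3 were below them. The log2 fold change was -0.14 (95% interval -0.58 to 0.30, adjusted p = 0.612 in edgeR). C1s was called lower under the size factors of DESeq2 (-0.57, adjusted p = 0.0462) and stood at -0.58 under TMM (adjusted p = 0.0537 in edgeR).

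The ratio of C1s to C1ra within a lane does not depend on the scaling, and it was tested with 4 other ratios for HDE and for diet, 10 exact permutation tests in all. The ratio had a lowest, median and highest value of 0.683, 1.12 and 1.49 on the DHA diet and 0.798, 1.33 and 1.49 on the control diet after HDE, as raw counts of 1 probe over the other. After saline it was 1.67, 0.998 and 1.90 on the DHA diet and 1.63, 1.67, 1.51 and 1.61 on the control diet. Without DHA diet + saline replicate 2, which had 0.998, every saline ratio exceeded every ratio after HDE. The mean log2 ratio differed by -0.40, lower after HDE (two-sided exact permutation within diets, p = 0.0154, 0.154 after adjustment over the 10 tests). Leaving out that 1 saline mouse gave -0.53 with an adjusted p of 0.00265, so the call turned on a single animal, and over all alternatives the adjusted p ran from 0.00265 to 0.475.

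No other ratio reached an adjusted p under 0.379. After HDE the mean log2 ratio differed by 0.18 for C1qb over C1qa (exact permutation p = 0.158), by 0.45 for Serping1 over C1s (exact p = 0.126), by 0.27 for C4a over C2 (exact p = 0.232) and by -0.21 for C1s over C1qa (exact p = 0.379).

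C4 and C2 are the substrates of C1s. The C4a probe needs care: in the RefSeq annotation the mouse gene C4a is listed as a transcribed pseudogene, and mouse C4b, its near-identical neighbor that encodes complement C4, was not among the panel's genes, so which of these transcripts the probe captured is uncertain. C1ra and C1s likewise have near copies, C1rb and C1s2, beside them in the genome.

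On the DHA diet with HDE the lowest, median and highest scaled counts of C4a were 1215, 2318 and 4129. On the control diet with HDE they were 867, 1347 and 6363. The saline mice had 1650, 6146 and 931 on the DHA diet and 3137, 1775, 973 and 949 on the control diet. The spread within each group was thus several fold, and both the lowest and the highest of the 20 mice were in the control diet + HDE group. HDE differed from saline by 0.09 on the log2 scale (95% interval -0.76 to 0.93, adjusted p = 0.876 in edgeR), an interval that in fold units ran from 0.591 to 1.91. Leaving out single mice moved the value between -0.30 (without control diet + HDE replicate 2) and 0.57 (without DHA diet + saline replicate 2).

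C2, the component that joins C4 in the C3 convertase, was as variable. Its lowest, median and highest scaled counts were 172, 295 and 860 on the DHA diet with HDE and 110, 290 and 803 on the control diet with HDE. With saline it had 213, 1123 and 231 on the DHA diet and 637, 329, 201 and 178 on the control diet. No HDE-exposed mouse exceeded the highest saline mouse, and 4 were below the lowest. The log2 fold change was -0.13 (95% interval -1.03 to 0.76, adjusted p = 0.821 in edgeR).

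Serping1, whose product inactivates C1r and C1s, had a lowest, median and highest scaled count of 1722, 2595 and 3175 on the DHA diet with HDE and of 1352, 2051 and 3133 on the control diet with HDE. The saline mice had 1556, 3591 and 1356 on the DHA diet and 2457, 1680, 1624 and 1772 on the control diet. Again the highest value was that of DHA diet + saline replicate 2. The log2 fold change was 0.23 (95% interval -0.21 to 0.67, adjusted p = 0.417 in edgeR).

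The lane of DHA diet + saline replicate 2 had the lowest endogenous total of all (123536), with its background at 84.0 scaled counts. The part of depth in its values was not tested. This mouse was the highest of the 20 in C1ra, C2 and Serping1 and the second highest in C4a and C1s. Without it and with run as a block, a setting chosen after seeing the data, the log2 fold changes for HDE were 0.42 for C1ra (adjusted p = 0.0914), 0.61 for C4a (adjusted p = 0.0657), 0.46 for Serping1 (adjusted p = 0.0643) and 0.37 for C2, and the calls among the 8 genes remained those of C1qbp alone.

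**Figure D3:**
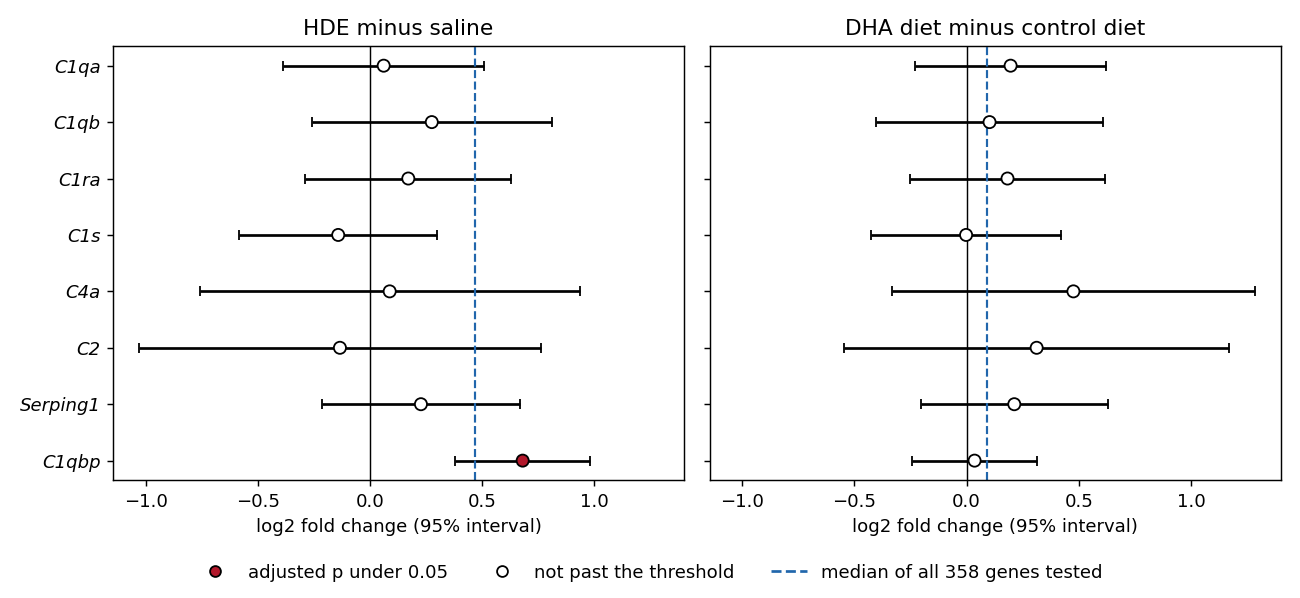
Log2 fold changes of the 8 genes with 95% intervals over 20 mice, HDE minus saline on the left and DHA diet minus control diet on the right, with a filled symbol for an adjusted p under 0.05 and a dashed line at the median of all 358 genes tested. C1qbp at 0.68 on the left is the single filled symbol, and the intervals of C4a and C2 are the widest.

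None of the 8 genes was called for diet. In all 20 mice the log2 difference, DHA diet minus control diet, was 0.48 for C4a (95% interval -0.33 to 1.28), 0.31 for C2 (-0.55 to 1.17), 0.21 for Serping1 (-0.20 to 0.63) and 0.20 for C1qa (-0.23 to 0.62). It was 0.18 for C1ra (-0.25 to 0.62), 0.10 for C1qb (-0.40 to 0.61), 0.04 for C1qbp (-0.24 to 0.31) and -0.0021 for C1s (-0.42 to 0.42). The lowest adjusted p among the 8 was 0.924 in edgeR, and no gene of the 358 was called (0% in each direction). At an unadjusted p of at most 0.05, 1.12% of the panel was higher and 2.79% lower on the DHA diet, and none of the 8 genes was among them. DESeq2 and limma also called 0 of the 8.

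Among the 13 HDE-exposed mice alone none of the 8 genes was called for diet either. The largest difference was again that of C4a, 0.32 (95% interval -0.64 to 1.28, adjusted p = 0.971 in edgeR), with no gene of 357 called. After saline C4a differed by 0.77 (-0.62 to 2.16) and C2 by 0.63 (-0.84 to 2.11), in 3 mice on the DHA diet against 4 on the control diet, where DHA diet + saline replicate 2 supplied the highest values. The interaction of diet and exposure reached no adjusted p under 0.997 in edgeR for any of the 8 genes. In these 3 comparisons none of the 8 had an unadjusted p of 0.05 or less. The intervals of C4a and C2 were too wide to tell a 2-fold diet difference from none, while that of C1qbp, in fold units 0.845 to 1.24, was narrow.

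C4a and C2 also differed between the runs. In a model of the 4 groups with run as a term, which was added after seeing the data, C4a was lower in run 2 than in run 1, with a log2 difference of -1.40 (SE 0.28, adjusted p = 0.00386 in edgeR, 6th by p of 358 genes), with mean scaled counts of 1279 in run 2 and 3382 in run 1. C2 was also lower, with -1.38 (SE 0.33, adjusted p = 0.00778), with means of 219 in run 2 and 567 in run 1. Over the panel 0.559% of genes were called higher and 10.3% lower in run 2, and the median difference was -0.26. The other 6 genes were not called, and C1qa, with -0.43 (adjusted p = 0.175), was the next largest.

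In each of the 4 groups every run 2 mouse had less C4a than every run 1 mouse, a separation that 3.35% of the 358 genes showed. Each run held mice of every group, with 1 mouse of the DHA diet + saline group in run 2. The lowest, median and highest scaled counts of C4a were 867, 1167 and 2255 in run 2 and 1588, 3107 and 6363 in run 1. For C2 they were 110, 185 and 525 in run 2 and 213, 511 and 1123 in run 1, and the runs were separated in 2 of the 4 groups. The run difference also depended on scaling: under TMM it was -1.001 for C4a (adjusted p = 0.0563) and -0.93 for C2 (adjusted p = 0.180), and with 14 housekeeping probes -1.01 (adjusted p = 0.0409) and -0.99 (adjusted p = 0.0965). The lanes of run 1 also ran lower in depth. Their endogenous totals ranged from 123536 to 453617, against 229749 to 684074 in run 2. Their geometric means of the 4 housekeeping genes ranged from 743 to 3557, against 2117 to 6827 in run 2. The part of depth in the run difference was not tested. The experimental set of a mouse and the run of its lane cannot be told apart here.

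**Figure D4:**
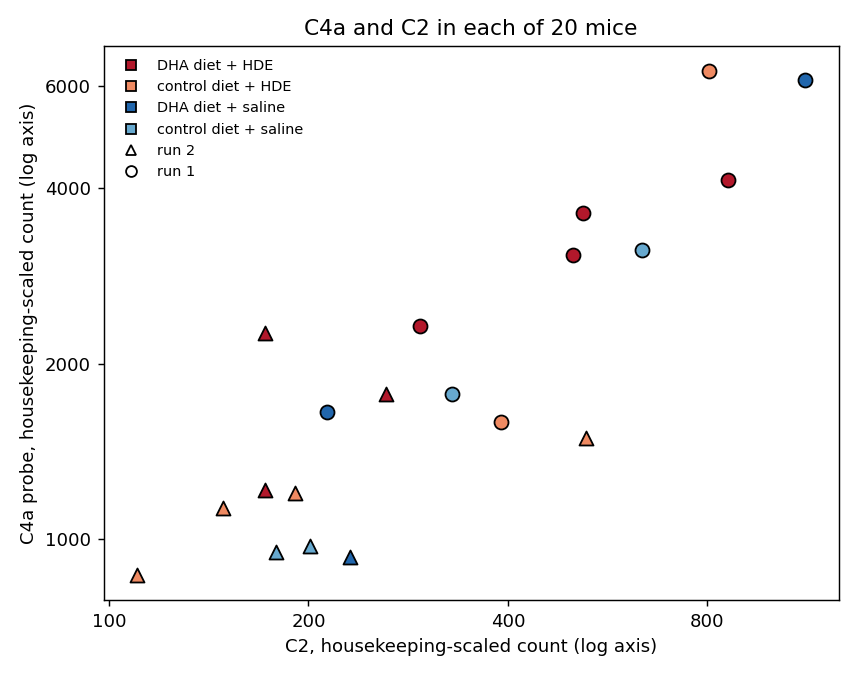
Housekeeping-scaled count of the C4a probe against that of C2 in each of the 20 mice, both on log axes, colored by group, with triangles for run 2 and circles for run 1. The run 2 mice fill the lower left, with C4a between 867 and 2255, and the 2 highest mice in C4a, at 6363 and 6146, come from different groups.

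Among the 8 genes C1qa with C1qb and C2 with C4a were each other's nearest gene when mice were compared one by one, and the other 4 had a gene outside the 8 as their nearest. Likeness was measured as the SD over the 20 mice of the difference between the log2 levels of 2 genes. This description shares lane and scaling between genes, and differences between groups and between runs were left in. A small SD means that the difference between 2 genes changed little from mouse to mouse, which also holds where both genes vary little. C1qa and C1qb were the closest pair, with an SD of 0.26, against SDs over the mice of 0.43 for C1qa and 0.56 for C1qb alone. Of all 357 other genes tested, C1qb was the nearest to C1qa and C1qa the nearest to C1qb. These genes lie together in the mouse genome, with C1qc, the gene of the remaining chain, between them.

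C2 and C4a were likewise each other's nearest gene of the panel, with an SD of 0.47 against their own SDs of 0.95 and 0.89. Both were lower in run 2 than in run 1, by log2 differences of -1.38 and -1.40, and the part of run in this likeness was not tested. The next gene was Il18 for C2 (0.67) and Bst1 for C4a (0.52). Of all genes tested C1ra was the 7th nearest to C2 (0.70) and the 10th nearest to C4a (0.66). C1ra had C1s as its second nearest gene, with 0.37, after Tgfb2 with 0.32, whereas the nearest to C1s was Ifnar2 (0.30). Serping1 stood nearest to Tgfbr2 (0.26) and Ifi35 (0.27), an interferon-induced gene. C1qbp stood nearest to Ddx58 (0.21), the gene of the RNA sensor RIG-I, and Ifngr2 (0.24), and its distance to C1qa was 0.48 and to C1qb 0.53, although its name comes from C1q. The log2 fold change for HDE was 0.68 for C1qbp, 0.75 for Ddx58 and 0.75 for Ifngr2, against 0.06 for C1qa and 0.28 for C1qb. The part of the HDE difference in these distances was not tested.

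**Figure D5:**
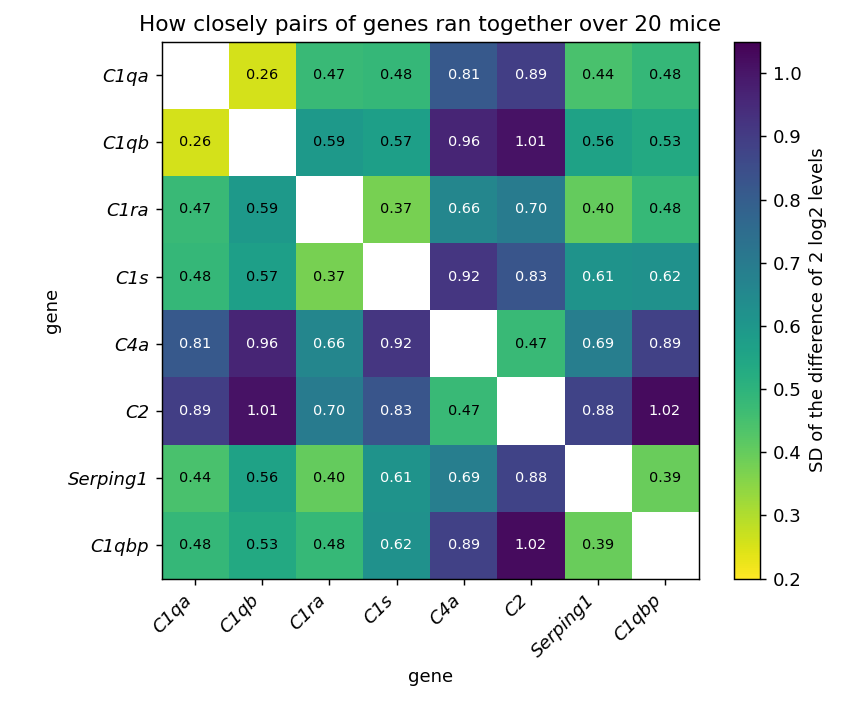
SD over the 20 mice of the difference between the log2 levels of each pair of the 8 genes, in log2 units. A light cell marks a low value, which also depends on how much each gene varied alone. The lightest cell is C1qa with C1qb at 0.26. C2 and C4a, the 2 genes that varied most, stand at 0.47 to each other and higher to the rest. C1qbp with C2 is among the darkest at 1.02.

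The promoters of members that could be matched are shown because they set C1qbp, the gene that was called, beside the C1 genes that were not. RefSeq promoter windows of 300 bases (250 before to 50 after the gene start, build GRCm38.p6, printed 5′ to 3′ on the gene's strand) were at hand for 4 of the 8 genes, where C1s is named C1s1 and the first of its 2 windows is printed. Capitals mark matches to the motifs searched on both strands.
C1qbp promoter, chr11:70982977-70983276, minus strand: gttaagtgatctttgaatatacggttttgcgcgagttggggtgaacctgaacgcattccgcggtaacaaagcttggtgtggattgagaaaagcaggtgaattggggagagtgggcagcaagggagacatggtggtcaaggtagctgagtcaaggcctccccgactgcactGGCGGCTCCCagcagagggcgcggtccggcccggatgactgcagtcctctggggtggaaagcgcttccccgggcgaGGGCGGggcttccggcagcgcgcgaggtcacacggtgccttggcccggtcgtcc
C1qb promoter, chr4:136886151-136886450, minus strand: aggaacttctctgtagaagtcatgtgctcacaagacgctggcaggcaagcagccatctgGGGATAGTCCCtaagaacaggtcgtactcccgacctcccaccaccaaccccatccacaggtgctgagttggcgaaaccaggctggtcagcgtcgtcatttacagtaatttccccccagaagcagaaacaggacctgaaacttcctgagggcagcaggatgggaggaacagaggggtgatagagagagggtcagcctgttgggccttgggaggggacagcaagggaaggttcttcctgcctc
C1ra promoter, chr6:124512371-124512670, plus strand: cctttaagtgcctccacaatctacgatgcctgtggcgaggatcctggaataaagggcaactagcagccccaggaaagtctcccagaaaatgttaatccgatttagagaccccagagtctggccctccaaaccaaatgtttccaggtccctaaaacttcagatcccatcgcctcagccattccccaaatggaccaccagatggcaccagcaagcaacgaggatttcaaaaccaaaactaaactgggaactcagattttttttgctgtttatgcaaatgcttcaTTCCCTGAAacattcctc
C1s1 promoter, chr6:124542310-124542609, minus strand: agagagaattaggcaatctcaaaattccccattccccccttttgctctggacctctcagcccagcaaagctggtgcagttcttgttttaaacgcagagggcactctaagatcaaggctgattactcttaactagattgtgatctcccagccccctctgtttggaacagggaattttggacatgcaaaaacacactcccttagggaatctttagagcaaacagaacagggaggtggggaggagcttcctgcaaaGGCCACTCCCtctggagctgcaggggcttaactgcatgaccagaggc

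The C1qbp window held 23 CpG dinucleotides and 62% G and C, against a median of 7 CpG and 52.7% over 32817 promoters of the same length. Of these promoters 78.5% held fewer CpG and 75.3% had a lower share of G and C. The C1 genes had 6 CpG in C1qb, 5 in C1ra and 1 in C1s. C1qbp held the Sp1 core GGGCGG, which began 4 bases before its start and ran across it. That motif was found in 35.6% of all promoters. C1qbp also held a match to the NF-kB pattern (GGGA and CC with any 4 bases between), as did C1s. C1qb held 2 that overlap each other, and 20.7% of promoters held at least 1. C1ra alone of the 4 held the gamma-interferon activation pattern TTCNNNGAA, 32 bases after its start (8.29% of promoters), and none held the core of the interferon-stimulated response element, GAAA repeated after any 2 bases (3.43%). A match is a likeness of letters and shows no binding.

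Other complement genes around the pathway were read from a list of 29, of which 24 were on the panel and 12 were tested. After HDE 2 of the 12 were called higher, 1 lower, and 9 did not pass, with a median log2 fold change of 0.16 against 0.47 over all genes. Over the panel 42.5% of genes were called higher and 5.03% lower. Cfb, the factor B of the alternative pathway and the genomic neighbor of C2, was higher by 1.90 (SE 0.37, adjusted p = 3.16e-04 in edgeR), and Itgam, a chain of complement receptor 3 that neutrophils also carry, by 1.42 (SE 0.31, adjusted p = 9.33e-04). Hc, the gene of complement C5, fell by 0.81 (SE 0.19, adjusted p = 0.00162). Cd55, a membrane inhibitor of the convertases, was at -0.64 (adjusted p = 0.0678). These 3 calls were also made under TMM, where Cfb stood at 1.498, Itgam at 0.89 and Hc at -1.29, and where 4 genes of the list were called lower in place of 1. Under TMM 29.6% of the panel was called higher and 26.3% lower. C2 stood at -0.13 beside the 1.90 of its neighbor Cfb, and that difference was not tested.

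On the diet none of these 12 genes was called, the smallest p belonging to Itgax, with 0.47, and Cfb, with 0.61 (adjusted p = 0.924 each in edgeR). Interferon-related genes were set beside the pathway because interferons are known to raise several complement genes. Of 20 tested, 12 were higher after HDE and none lower, with a median of 0.70 (7 higher and 1 lower under TMM). Over the panel 42.5% of genes were called higher and 5.03% lower (29.6% and 26.3% under TMM), with a median of 0.47. Cxcl10 was higher by 4.85, Irf1 by 1.42, Jak2 by 1.19 and Stat2 by 1.17 (adjusted p of at most 0.00105 each in edgeR). The part of interferon in the 8 genes was not tested. Set beside the same panel shares, 1 of 8 endothelial and stromal markers was called higher and 1 lower (1 and 5 under TMM). Of 5 B cell markers 2 were lower (5 under TMM), and of 7 T cell and thymus markers none was called over the 20 mice. On the control diet, where 25.1% of the panel was called higher after HDE, 6 of these 7 were, with a median log2 fold change of 2.93. For diet over the 20 mice none was called. Before adjustment all 7 were lower on the DHA diet (p of 0.05 or less each in edgeR), at a median of -1.72, where 2.79% of the panel was lower. Control diet + HDE replicate 3 had a summed count of 19977 in that list against 3032 or less in the others. Without it 3 of the markers were tested, and none was called after HDE on the control diet (median 0.43) or for diet (median -0.47). That mouse was the lowest of the 20 in C1ra, C2 and C4a. The part of these cell types in the 8 genes was not tested.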

How the data were processed

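Left lung RNA of 20 mice was read on the NanoString mouse Immunology panel with an nCounter Sprint profiler. The raw counts of each lane, taken from nSolver 4.0 by the authors, had no background subtracted. The deposited normalized values, a signal that is no longer whole, equaled the raw count times 1 factor per lane, set by 4 housekeeping genes (Eef1g, Oaz1, Ppia and Rpl19, geometric mean). Per the labels, 24 lungs had been drawn from 40 mice, and the 4 groups were taken from them. Endogenous totals ran from 123536 to 684074 counts per mouse, and no 2 lanes agreed within counting noise.

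Raw counts were scaled by the same 4 genes. Genes that averaged 82 scaled counts or more were tested with the quasi-likelihood test of edgeR 4.0.16 (R 4.3.3) and Benjamini-Hochberg adjustment over all genes tested (threshold 0.05). Exposure and diet came from a model of both, and a model of the 4 groups gave the interaction and the within-diet values. Intervals are the log2 value and its SE times the t quantile at 95%. Ratios of raw counts were compared by two-sided exact permutation, and likeness used log2(scaled count + 1). Alternatives were TMM, 14 housekeeping probes, DESeq2 1.42.0, limma 3.58.1 on the deposited values, negative-control background (mean plus 2 SD) subtracted with a floor of 1, other filters, run as a block or alone, and mice left out. The scripts were tested on simulated data. Members and gene lists were chosen with earlier results of these data known. All 8 members are named, with up to 4 genes per list by smallest p and the 2 genes nearest to each member, except 1 near C1s that is not reported here. Of 547 probes 537 matched RefSeq by accession, the 8 members included.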

Additional observations from a re-analysis of the deposited data

Results flagged for a closer look

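Within groups of 4 to 10 mice, 1 of 24 sets of values held a mouse set apart by Dixon's criterion at 95%, and chance alone gives about 1 in 20. It was C4a in control diet + HDE replicate 2, with a scaled count of 6363 where the next mouse of the group had 1588. This mouse was in run 1, as was the next highest. Its C1qa (338), C1qb (460), C1ra (790), C2 (803) and Serping1 (3133) were also the highest of the group, while its C1qbp (513) and C1s (630) were not. Its lane had the second lowest endogenous total of all mice (129599) and the highest background in scaled counts (97.5). The part of depth in its values was not tested.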

How the results depend on the processing

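No paired analysis was possible because the replicate numbers follow the order of deposition and pair no mice. All 160 counts of the 8 genes were above background. The part of depth, of the number of mice (3 and 4 with saline) and of the spread between mice in the width of the intervals was not tested. For none of the changes below was the cause tested.

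For HDE over 20 mice, 1 of the 8 genes was called higher and 0 lower. With TMM these counts were 0 and 1, with the size factors of DESeq2 0 and 2 (C1qa and C1s, -0.57), in run 2 alone 0 higher (6.77% of all genes) and in run 1 alone 2 higher (42.8%). Within each diet the count of 1 fell to 0 with TMM and with DESeq2's size factors, and ranged from 0 to 1 with single mice left out. Over the panel 106 genes were higher and 94 lower with TMM, 112 and 94 with DESeq2's size factors, and 152 and 18 with 4 housekeeping genes. Both scalings turned uncalled differences. With TMM HDE gave C1qa -0.45, C1qb -0.30, C1ra -0.25, C4a -0.29 and Serping1 -0.25. With DESeq2's size factors they were -0.44, -0.29, -0.25, -0.30 and -0.25, and with 14 housekeeping probes C1qa was -0.047. Run 2 alone gave C1qa -0.055, C1qb -0.17 and C2 0.15. C2 was 0.053 with run as a block and 0.37 with the block and DHA diet + saline replicate 2 left out. Leaving out single mice gave C2 -0.34 to 0.37 and C4a -0.30 to 0.57.

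No gene of the 8 was called for diet under any alternative, and several small differences changed sign. Over 20 mice C1qbp was -0.040 with TMM, -0.034 with 14 housekeeping probes, -0.020 with DESeq2's size factors, -0.015 in run 2 alone, -0.052 without control diet + HDE replicates 3 and 6 and -0.00099 with the block and DHA diet + saline replicate 2 left out. The last setting gave C1ra -0.051 and C2 -0.21, and the omission of those replicates gave C1qb -0.0010. Run 2 alone gave C1qa -0.27, C1qb -0.31, C1ra -0.076 and C2 -0.11, and run 1 alone gave C1s 0.14. Single mice left out gave C1qbp -0.028 to 0.073, C1ra -0.0046 to 0.26, C1s -0.098 to 0.085 and C2 -0.065 to 0.57.

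Over the 13 HDE-exposed mice C1qbp was -0.10 with TMM, -0.019 with 14 housekeeping probes, -0.053 with DESeq2's size factors, -0.0085 in run 2 alone and -0.088 without those 2 replicates. C1ra was -0.033 with TMM and -0.057 without them. C2 was -0.14 with TMM, -0.080 with DESeq2's size factors, -0.21 with run as a block, -0.27 in run 2 alone and -0.12 in run 1 alone. C1qb was -0.035 with the block, run 2 alone gave C1qa -0.32 and C1qb -0.43, and run 1 alone gave C1s 0.15 and C4a -0.27. Single mice left out gave C1qbp -0.045 to 0.11, C1ra -0.035 to 0.23, C1s -0.19 to 0.10 and C2 -0.17 to 0.54.

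For run 2 against run 1, a comparison added after seeing the data, C1qb was 0.0089 with TMM and 0.086 with 14 housekeeping probes. C1qbp was 0.19, 0.23 and, with DESeq2's size factors, 0.17. C1s was 0.12, 0.16 and 0.12. With 14 housekeeping probes C1ra was 0.0018 and Serping1 0.045. Over the panel 20 genes were higher and 12 lower in run 2 with TMM, 14 and 8 with 14 housekeeping probes and 2 and 37 with 4. Single mice left out gave C4a -1.52 to -1.11 and C2 -1.57 to -1.21. The C1s over C1ra ratio ranged from -0.53 to -0.31, called only without DHA diet + saline replicate 2.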
